A study of Mus musculus with 8 samples.

Results

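Broad regions of H3K27ac that differed between Nrip1-/- (KO) and control primary myotubes were examined. H3K27ac, acetylation of lysine 27 of histone H3, is a mark of active promoters and enhancers. The regions were chosen by their width, from 2 deposited lists of regions that differed by 2-fold or more between the genotypes: every listed region of 3 kb or wider was taken, and its direction is the list it came from. There were 472 such regions among the 11180 listed (4.22%, 95% Wilson interval 3.86 to 4.61), with 108 in the increased and 364 in the decreased list. Width, direction and number of joined peaks thus describe the regions and were not tested.

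Nrip1 encodes RIP140, a coregulator of nuclear receptors, and the experiment asked where the mark differs when it is missing from muscle cells. Satellite cells from gastrocnemius muscle were expanded and differentiated for 4 days, and nuclei were pooled and split between antibodies. The 8 CUT&RUN libraries formed 4 groups of 2, with H3K27Ac and IgG antibodies for Nrip1 KO and for control myotubes. KO mice carried Nrip1 fl/fl alleles, with loxP sites around coding exon 4, and littermates without Cre were the controls. The study describes these myotubes as striated muscle-specific knockouts, its name for mice in which the muscle creatine kinase promoter drives Cre, and the labels do not name the line. The files used here hold intervals and no value per library, so neither depth nor fold changes, replicate spread or IgG background can be read from them. For the same reason, neither loss of Nrip1 nor the level of the mark at genes that define myotubes could be checked.

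Stretches of H3K27ac that run over several kb tend to lie over genes that a cell type uses heavily, and many belong to groups of neighbouring enhancers that act on 1 gene. In muscle, such genes include transcription factors of the myogenic programme and genes of the contractile apparatus. A broad region can be called as a whole or put together from several called peaks, and the region names record how many peaks were joined. This number does not tell whether the peaks lay side by side or overlapped.

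Sequence from the widest regions and from those over named regulators is shown to give a view of what they contain. Each line is 160 bases of build GRCm38 (mm10), which hold no annotated exon. Capitals mark matches, on either strand, to the E-box of the MyoD type (CAGCTG), AP-1 (TGACTCA or TGAGTCA), TEAD (ACATTCC or GCATTCC), RUNX (TGTGGTT, also with C in the third place, the last place or both), ERR (TCAAGGTCA), GABPA (CCGGAAGTG) and the MEF2 motif. In the regions at Akip1, Mab21l1, Runx1, Socs1 and Myom3, the window was the 1 with most matches outside exons, and it is printed on the plus strand. At Meis1 it is the sequence just upstream of a covered transcription start, on the minus strand, which is that of the gene.
Akip1, chr7:109709229-109709388: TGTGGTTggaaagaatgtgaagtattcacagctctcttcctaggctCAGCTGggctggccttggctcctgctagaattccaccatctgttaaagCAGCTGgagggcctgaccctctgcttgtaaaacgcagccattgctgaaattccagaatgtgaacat
Mab21l1, chr3:55785168-55785327: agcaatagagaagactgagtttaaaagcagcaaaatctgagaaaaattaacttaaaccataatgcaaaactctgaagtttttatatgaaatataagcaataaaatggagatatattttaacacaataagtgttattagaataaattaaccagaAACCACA
Meis1, chr11:19018986-19019145: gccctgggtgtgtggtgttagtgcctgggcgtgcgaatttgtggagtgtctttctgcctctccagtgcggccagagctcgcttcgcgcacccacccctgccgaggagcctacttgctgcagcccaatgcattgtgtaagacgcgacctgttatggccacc
Runx1, chr16:92630773-92630932: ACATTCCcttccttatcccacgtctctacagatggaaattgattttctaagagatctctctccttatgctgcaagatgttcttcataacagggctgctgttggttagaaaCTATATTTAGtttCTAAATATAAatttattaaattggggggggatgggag
Socs1, chr16:10776493-10776652: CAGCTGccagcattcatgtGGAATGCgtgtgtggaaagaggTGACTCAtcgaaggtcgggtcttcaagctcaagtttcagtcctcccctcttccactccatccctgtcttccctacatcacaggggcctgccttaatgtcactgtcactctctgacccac
Myom3, chr4:135772720-135772879: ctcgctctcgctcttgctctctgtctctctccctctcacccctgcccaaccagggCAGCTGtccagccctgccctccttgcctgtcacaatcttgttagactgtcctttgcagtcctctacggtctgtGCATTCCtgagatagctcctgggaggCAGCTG

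The Akip1 window from the widest increased region held 2 E-boxes and 1 RUNX match. The Runx1 window from the widest decreased region held 2 MEF2 matches and 1 TEAD match. The Socs1 window held 1 E-box, 1 AP-1 match and 1 TEAD match, and that at Myom3 held 2 E-boxes and 1 TEAD match. The window upstream of Meis1 held none of these motifs, and its GC content was 61.3%. For comparison, 13.1% of the central 160 bases of all 11179 listed regions on placed chromosomes held an E-box, 8.49% a RUNX match, 5.46% a TEAD match, 4.78% an AP-1 match and 2.33% a MEF2 match. In the 160 bases upstream of protein-coding genes these shares were 8.41%, 6.59%, 3.41%, 2.65% and 1.56%. Windows picked for their matches hold more of them by construction.

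Decreased regions made up most of the broad set. Increased regions were 22.9% of the broad regions (95% Wilson interval 19.3 to 26.9, counting error only), whereas they were 35.0% of all listed regions and 35.6% of the narrower ones (34.7 to 36.5). Put the other way, 2.76% of increased regions reached 3 kb (2.29 to 3.32) and 5.01% of decreased regions did (4.53 to 5.54). The broad regions covered 457 kb in the increased list, which was 11.4% of its bases, and 1704 kb in the decreased list, which was 19.4%. Because the regions were chosen by width, their share of the bases exceeds their share of the regions by construction.

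Widths had a long upper tail, above all among decreased regions. Increased regions ran from 3005 to 12878 bp with a median of 3724 bp (quartiles 3305 and 4655), and decreased regions ran from 3004 to 36470 bp with a median of 3909 bp (quartiles 3391 and 5199). Only 1 increased region was wider than 10 kb, compared with 9 decreased regions, which together held 8.38% of the broad decreased bases. Most regions lay close to the threshold: 61 of 108 increased (56.5%) and 193 of 364 decreased regions (53.0%) were under 4 kb. Just inside it were the increased regions near Pcmtd1 (3005 bp), in Grik2 (3008 bp) and near Rasa1 (3019 bp), and just outside it those at Sufu (2985 bp), Ptgs2 (2987 bp) and Nr2f2 (2995 bp). On the decreased side, regions near Fam91a1 (3004 bp) and Kcnk12 (3008 bp) and over Nup214 (3011 bp) were just inside. Those in Sept9 (2991 bp) and Tmem30c (2995 bp) and near Cyp2j5 (2999 bp) were just outside.

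Joining of called peaks went with width in both lists. Of the broad regions, 61 increased (56.5%, 47.1 to 65.4) and 216 decreased (59.3%, 54.2 to 64.3) had been joined from 2 or more peaks, compared with 8.35% and 5.04% of the narrower regions. Among increased regions, 47 held 1 peak, 50 held 2, 9 held 3, and 1 each held 4 and 5. Among decreased regions, 148 held 1 peak, 168 held 2, 41 held 3, 6 held 4 and 1 held 10. All 48 decreased regions with 3 or more joined peaks were broad, as were 11 of 15 such increased regions. Narrower regions of 2 peaks were as short as 568 bp (increased) and 515 bp (decreased), and those of 1 peak as short as 501 bp. Joined peaks can thus overlap, and their number need not count separate neighbouring peaks. Joining widens a region, so this relation follows in part from how the regions were made. It did not account for every wide region, since the decreased region over Glis2 reached 10700 bp as 1 called peak and the increased region in Sae1 reached 6142 bp.

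**Figure D1:**
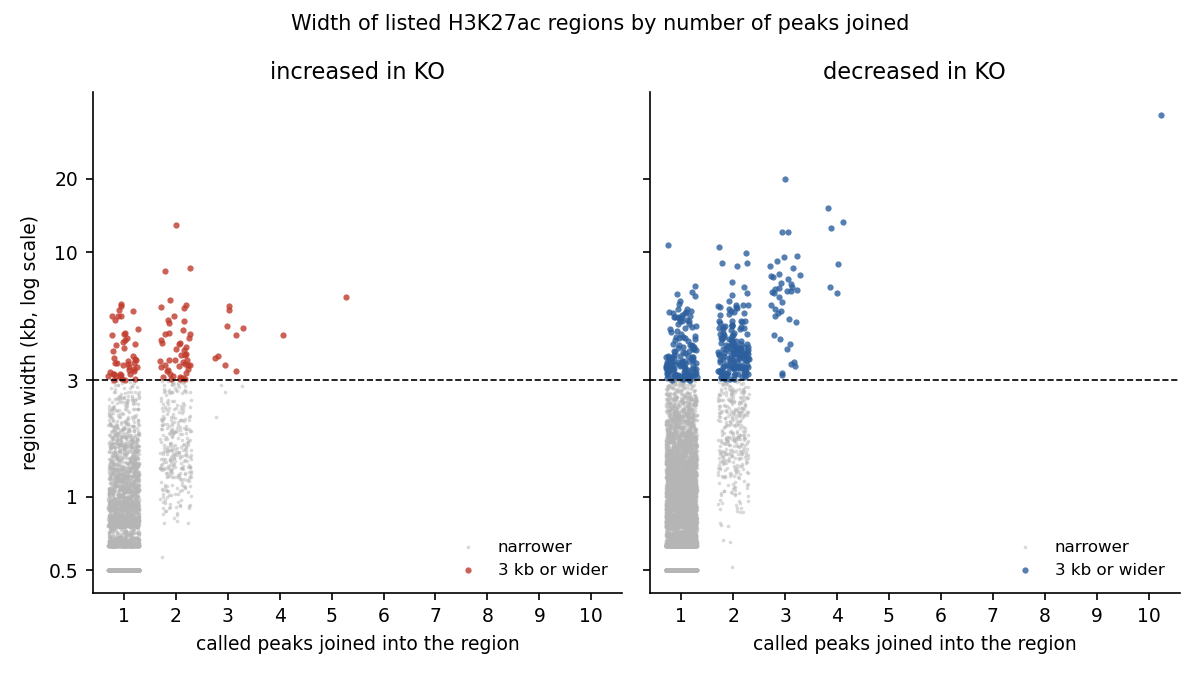
Region width in kb on a log axis against the number of called peaks joined into the region, for increased (left) and decreased (right) regions; points are regions, spread sideways within each number, and the dashed line is at 3 kb. Coloured points are broad regions, and the decreased region of 36470 bp with 10 peaks stands alone at the upper right.

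The 10 widest increased regions ran from 5955 to 12878 bp, and each shared bases with a protein-coding gene. The widest, chr7:109703801-109716678, covered 98.7% of the body of Akip1, which encodes a protein that binds protein kinase A, and part of BC051019 (12878 bp, 2 peaks). It was followed by chr3:55779573-55788168 (8596 bp, 2 peaks), which held the whole of Mab21l1, a developmental gene that lies inside the neuronal trafficking gene Nbea. A region of 8380 bp covered the start of Nkain2, whose product interacts with the sodium pump. Sytl2, which encodes an effector of vesicle transport, held regions of 6527 bp (5 peaks, the most of any increased region) and 6019 bp. The transcription factor genes Meis1, of the homeobox class, and Nr2f2, an orphan nuclear receptor, had regions of 6104 and 6010 bp over a transcription start. The rest of the 10 widest were in Iqck (6394 bp), in the SUMO-activating enzyme gene Sae1 (6142 bp) and in the lipid hydrolase gene Abhd2 (5955 bp). Of these 10 regions, those at Akip1, Sytl2, Iqck, Sae1, Nr2f2 and Abhd2 were on chromosome 7.

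The 10 widest decreased regions ran from 9929 to 36470 bp. The widest was chr16:92619478-92655947 in Runx1, a transcription factor gene, with 36470 bp and 10 joined peaks. Next was chr3:5210208-5230093 (19886 bp, 3 peaks) over the start of the zinc finger homeobox gene Zfhx4, and then chr16:10770283-10785411 (15129 bp, 4 peaks), which covered 96.2% of Socs1, a feedback inhibitor of JAK-STAT signalling. A region of 12575 bp lay 49.0 kb from the start of Ripk4. Sh3gl1, an endophilin gene, had 61.0% of its body under a region of 12139 bp. Myom3, which encodes a protein of the M-band of the sarcomere, held a region of 12064 bp (3 peaks), and the actin capping gene Capzb 1 of 10463 bp (2 peaks). Others of the 10 widest were at the zinc finger gene Glis2 (10700 bp) and the podosome adaptor gene Sh3pxd2b (9929 bp).

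Both directions were spread unevenly over the chromosomes. Chromosome 7 held 51 of the 108 broad increased regions (47.2%, 38.1 to 56.6) and no broad decreased region. Chromosomes 16 and 4 held 56 and 55 broad decreased regions and 1 broad increased region each. On chromosome 10 there were 9 increased and 2 decreased regions. These 4 chromosomes held 37.1% of the broad regions (32.8 to 41.5), compared with 30.2% of all listed regions. On the 16 other chromosomes apart from Y, counts ranged from 0 to 10 for increased and from 1 to 31 for decreased regions. Some of these were one-sided as well. Chromosome 15 held 0 increased and 19 decreased regions, chromosome 17 held 0 and 15, and chromosome 8 held 1 and 21. Only chromosome X among them had more increased (4) than decreased regions (1). Outside the 4 chromosomes, 46 of 297 broad regions were increased (15.5%, 11.8 to 20.0), compared with 30.8% of narrower regions there, so the lower share among broad regions was present without them. Positions along a chromosome were not examined. On the 4 chromosomes, a difference tied to the chromosome cannot be told apart from a difference at single genes on them.

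Chromosome 7 also had the higher share of its increased regions in the broad class. Of its 973 increased regions, 5.24% were broad (4.01 to 6.83), compared with 1.95% of increased regions outside the 4 chromosomes (1.47 to 2.59). For decreased regions these shares were 7.18% on chromosome 16 (5.57 to 9.21) and 6.78% on chromosome 4 (5.25 to 8.72), compared with 4.61% outside the 4 chromosomes (4.08 to 5.20).

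**Figure D2:**
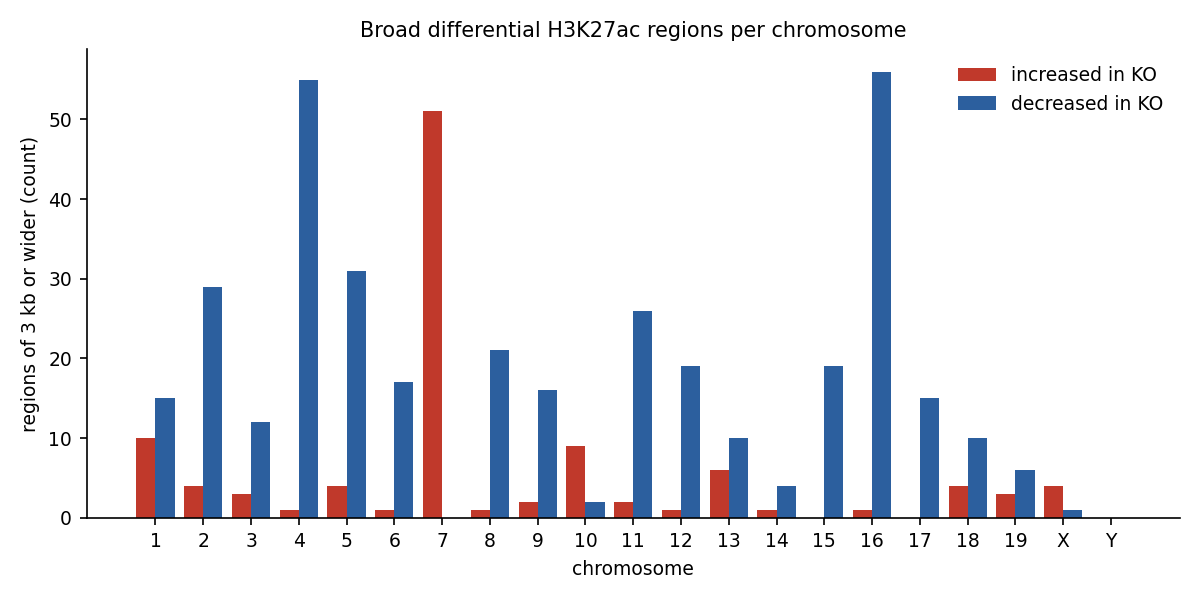
Number of broad regions on each chromosome; red bars are increased and blue bars decreased regions. Chromosome 7 has 51 increased and no decreased region, and chromosomes 4 and 16 have 55 and 56 decreased regions and 1 increased region each.

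Broad regions touched the bodies of 68 protein-coding genes in the increased direction and 231 in the decreased direction, and no gene was touched in both. Of all 21924 protein-coding gene symbols, these were 0.310% and 1.05%. Of the same symbols, 6.83% shared a base with an increased region of any width and 12.3% with a decreased one. Both broad sets are small, so the lack of shared genes says little about how far the directions are separate. With regions of any width, 8 of the 68 genes also held a decreased region and 13 of the 231 an increased one. The touched genes were long, with a median length of 116.4 kb for increased and 71.2 kb for decreased regions, compared with 17.4 kb for all protein-coding genes. A long gene offers more room to any region.

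Inside a gene body and away from a start lay 54 broad increased (50%, 40.7 to 59.3) and 211 broad decreased regions (58.0%, 52.8 to 62.9), close to the 49.0% and 55.7% of narrower regions. Outside all protein-coding gene bodies were 35 increased (32.4%, 24.3 to 41.7) and 107 decreased regions (29.4%, 24.95 to 34.3), compared with 45.8% and 40.2% of the narrower regions. Introns made up 56.2% of the bases of broad increased regions and 61.0% of those of broad decreased regions. Coding sequence made up 2.05% and 2.22%. The median distance from the centre of a region to the nearest protein-coding start was 21.3 kb for increased and 18.3 kb for decreased regions.

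A protein-coding start, of any annotated transcript, was covered by 19 broad increased regions (17.6%, 11.6 to 25.8) and by 46 broad decreased regions (12.6%, 9.61 to 16.4), compared with 5.15% and 4.12% of narrower regions. Wide regions cover more by their size: per Mb of sequence, the starts of 43.8 and 27.6 genes were covered by broad regions and those of 58.1 and 41.9 genes by narrower regions. The higher share of broad regions with a start was thus not seen per base. Of the 19 increased regions, 13 were on chromosome 7, and without chromosomes 4, 7, 10 and 16 the share was 10.9%.

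The outermost start of a gene was covered by 13 increased and 28 decreased regions. Around those starts, the regions reached further into the gene than upstream of it: the median was 812 bases upstream and 3411 downstream for the 13 genes of increased regions, and 1365 upstream and 3548 downstream for the 29 genes of decreased regions. More bases lay downstream at 11 of 13 and 20 of 29 genes. At the outermost starts covered by narrower regions the downstream part was also the longer, with medians of 405 bases upstream and 754 downstream (77 of 120 genes) for increased and 348 and 729 (126 of 183 genes) for decreased regions. Exceptions among the broad decreased regions included Mylk2, the skeletal muscle kinase of myosin light chain, with 7468 bases upstream and 575 downstream, and the glycolytic gene Gapdh, with 4171 and 578. At Zfhx4 the region reached 8318 bases upstream and 11567 downstream. Mylk2 and Gapdh were picked after their values were seen.

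**Figure D3:**
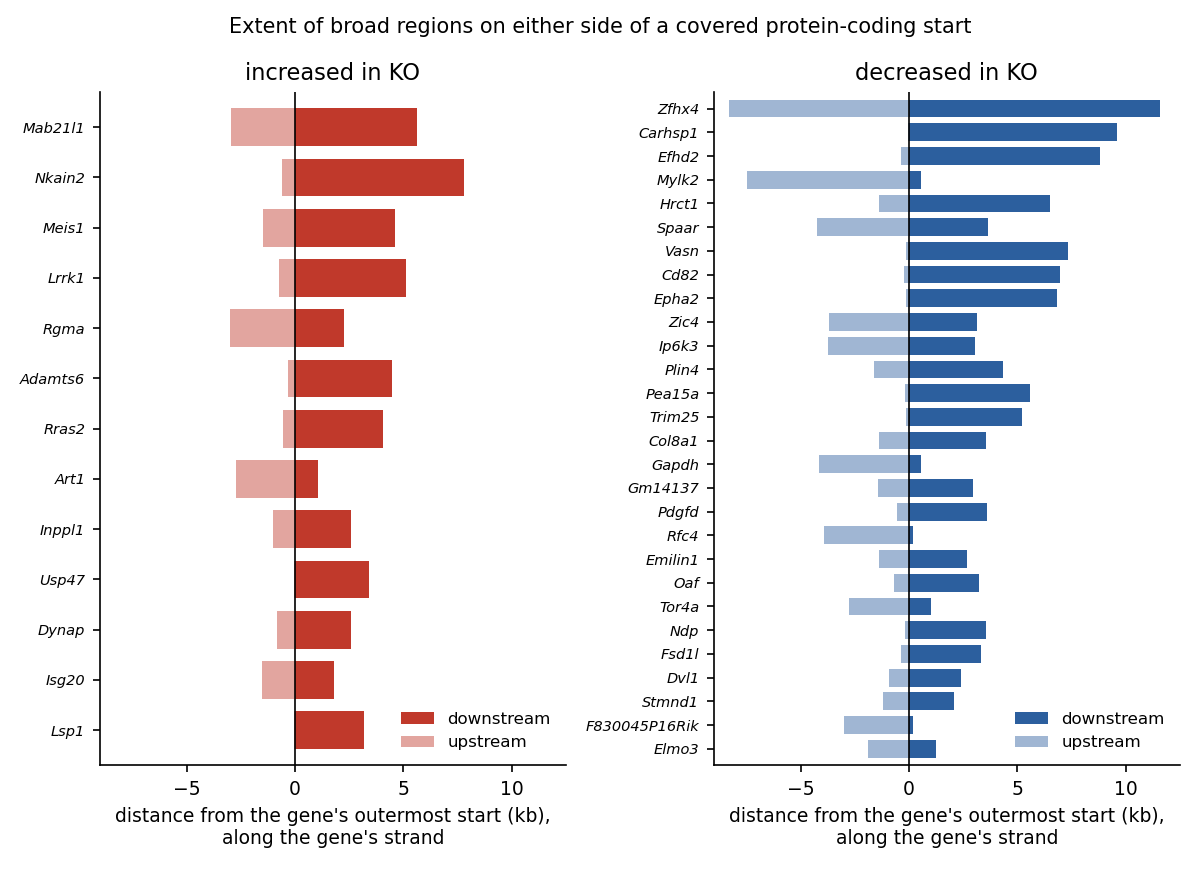
Bases of broad regions upstream (pale, to the left) and downstream (dark, to the right) of the outermost annotated start of each protein-coding gene whose start they cover, in kb along the strand of the gene, with the widest regions at the top; 1 gene of the decreased panel is counted and not drawn. At 11 of 13 genes of increased regions and 20 of 29 genes of decreased regions the downstream part is the longer.

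Some genes lay almost or wholly under a broad region. More than 50% of the body of 15 protein-coding genes was covered. In the increased direction these were Mab21l1 (100%), Akip1 (98.7%), the homeobox gene En1 (93.8%) and Dynap (62.1%). In the decreased direction the highest shares were those of Hrct1 (100%), Gm14137 (96.3%), Socs1 (96.2%), the zinc finger gene Zic1 (88.5%), Carhsp1 (70.7%) and Vasn (67.4%). The start of Zic4, the neighbour of Zic1, lay in the same region of 6864 bp.

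Broad regions recurred within a few genes. In the increased direction 7 genes held 2 or more. Tead1, a factor that binds the promoters of many muscle genes, held 3 (5790, 3483 and 3308 bp) together with 5 narrower increased regions and no decreased one. Sytl2 held 3 (6527, 6019 and 5502 bp), which covered 16.6% of its body. The clathrin adaptor gene Picalm, near it on chromosome 7, held 2, as did Dlg2, a synaptic scaffold gene further along, and Lsm14a and St8sia2 on the same chromosome. Ctnna1, which encodes alpha-catenin of cell junctions, was the only such gene off chromosome 7, and it also held 1 narrower decreased region.

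In the decreased direction 30 genes held 2 or more broad regions. The gene 2900026A02Rik held 7, of 3149 to 8811 bp, which covered 29.0% of its 134.9 kb, and it also held 11 narrower decreased regions. Arhgef10l, a gene of a guanine nucleotide exchange factor, held 4 (3072 to 4679 bp) and 10 narrower ones. Gse1 held 3, up to 7970 bp, with 13 narrower ones, and Hivep3, a zinc finger gene, held 3, up to 5375 bp, with 14. None of these 4 genes held an increased region of any width. The gene model Gm20388 spans 4435 kb and runs across Gse1 and other genes, so its 8 broad regions are not a cluster. In Runx1 a second region of 3276 bp lay 18.3 kb from the widest, and the gene held 6 narrower decreased regions. Genes with 2 broad decreased regions included Capzb, Sh3pxd2b, Smad3, Rxra, Asb2, Plxna1, Masp1, H6pd, Nedd9 and Adamts9.

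**Figure D4:**
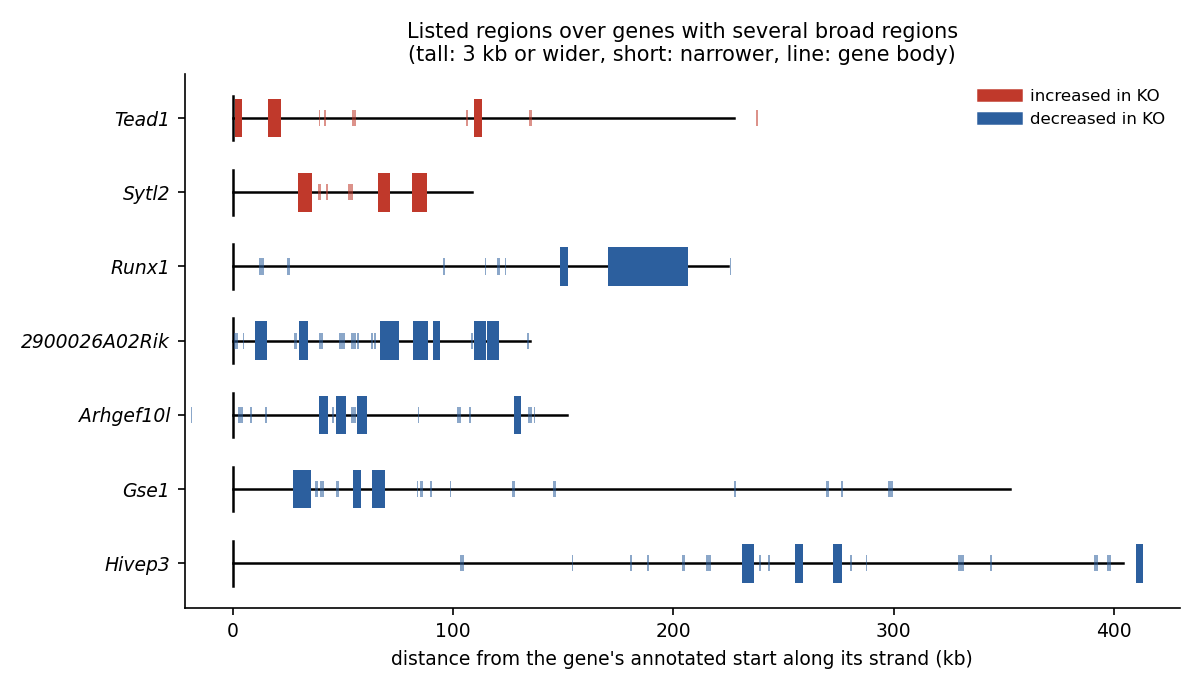
Listed regions over 7 genes with several broad regions, as distance in kb from the annotated start along the strand of the gene; the black line is the gene body, tall boxes are broad and short boxes narrower regions, drawn for the gene and its flanks. Tead1 and Sytl2 carry increased regions only, and the other 5 genes carry decreased regions only; the tall box beyond the end of Hivep3 is not counted for that gene.

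Neighbouring broad regions were also counted without regard to genes. With broad regions of the same direction within 100 kb put together, 21.3% of increased and 30.2% of decreased broad regions had at least 1 such neighbour. The largest run was that of 2900026A02Rik, with 7 regions in 110.7 kb. A run of 5 decreased regions near Cldn5 and Cdc45 on chromosome 16 covered 34.5% of 63.2 kb. Among runs of 3 or more, the densest was at Fsd1l on chromosome 4, where 3 decreased regions covered 80.3% of 13.9 kb. Increased runs of 3 lay at Sytl2, at Tead1 and across Eed and Picalm, all on chromosome 7.

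Listed regions of any width were common next to broad ones. A region of the same direction lay within 50 kb of 79 broad increased (73.1%, 64.1 to 80.6) and 304 broad decreased regions (83.5%, 79.4 to 87.0), compared with 43.9% and 61.3% of narrower regions. A region of opposite direction lay within 50 kb of 8 (7.41%, 3.80 to 13.9) and 16 (4.40%, 2.72 to 7.02), compared with 13.7% and 8.68%. Without chromosomes 4, 7, 10 and 16, the shares with a neighbour of the same direction were 54.3% and 80.5% for broad and 30.0% and 57.7% for narrower regions.

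Base composition differed between the directions in the same way for broad and narrower regions. The GC content of broad increased regions was 43.4% ± 5.50 (SD over 108 regions), and that of broad decreased regions was 49.0% ± 4.41 (SD over 364 regions). Narrower regions averaged 43.5% and 48.0%. The mean was lower for broad increased regions on 16 of the 17 chromosomes that held both directions, many of which held only 1 increased region, and the exception was chromosome 14. Without chromosomes 4, 7, 10 and 16 the means were 41.7% and 48.9%. No test was run on these values, since neighbouring regions share their sequence surroundings and are not replicates of a genotype. The lowest GC contents, 24.9% and 26.6%, belonged to a pair of increased regions on the X chromosome near 4932411N23Rik, and repeats made up 50.2% of chrX:126771732-126777490.

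**Figure D5:**
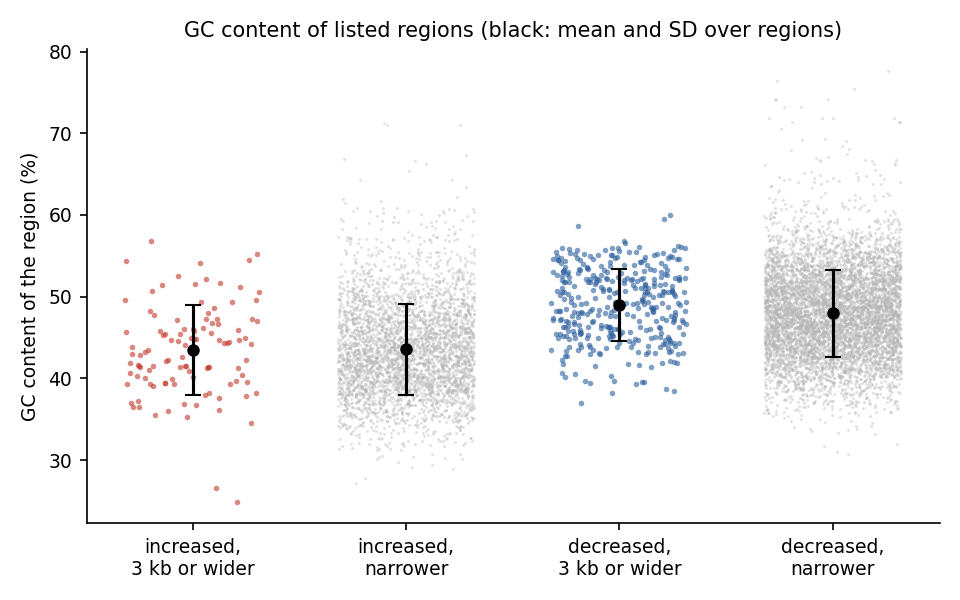
GC content in percent of each listed region, by direction and width class; coloured points are broad and grey points narrower regions, and black points with bars are the mean and SD over regions. The broad increased regions have a mean of 43.4% and the broad decreased regions a mean of 49.0%, and the 2 sets of points overlap.

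Matches to short motifs were counted over the whole width of the regions. E-boxes of the MyoD type, the site of the myogenic factors, occurred 0.597 times per kb in broad increased (95% Poisson interval 0.529 to 0.673) and 0.846 times per kb in broad decreased regions (0.802 to 0.890). MEF2 matches, which are rich in A and T, occurred 0.256 (0.212 to 0.307) and 0.113 (0.0973 to 0.130) times per kb. Rates in narrower regions were close to these, with 0.669 and 0.887 for the E-box and 0.267 and 0.118 for MEF2. The rates of TEAD (0.330 and 0.296), AP-1 (0.232 and 0.219) and RUNX matches (0.486 and 0.530) had intervals that overlapped between the directions. ERR matches, the site of the estrogen-related receptors whose activity RIP140 is known to repress, were found at 0.0306 per kb in increased and 0.0293 per kb in decreased regions. In the central 500 bp alone, the E-box rates were closer, at 0.778 and 0.885 per kb in broad increased and decreased regions. In that window TEAD matches came to 0.5 and 0.297 per kb, MEF2 matches to 0.352 and 0.115, and RUNX matches to 0.648 and 0.588. No intervals and no rates of narrower regions were taken for this window. The gaps between directions there were thus not set against counting error. GC content moved with the E-box and MEF2 rates over the whole width, and its part in them was not tested.

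Of 575 genes in 13 lists of muscle, matrix, signalling and metabolic functions, 10 (1.74%) shared a base with a broad increased region and 15 (2.61%) with a broad decreased region, beside 0.310% and 1.05% of all protein-coding genes. No test of enrichment was run, and the lengths of the listed genes were not compared. The lists were chosen with earlier results of these data known. They also include genes that the study named from these regions. The shares of listed genes, here and below, are therefore not independent evidence. Among 36 myogenic regulators, Tead1 held broad increased regions, and Tead3, a related factor (3885 bp), and Mrtfa, a coactivator of serum response factor (6963 bp, over a start), held broad decreased regions. Among 49 listed sarcomere and contractile genes, Myom3 was the only gene with a broad region, a decreased one (2.04% of the list, beside 1.05% of all protein-coding genes). With 10 kb on either side of the gene body, 1 of the 49 had a broad increased and 2 a broad decreased region. That list is not complete: Mylk2 (8044 bp) and Capzb (10463 bp) are not on it and had broad decreased regions over a start. None of 20 myoblast and progenitor genes held a broad region. With 0.31% (increased) and 1.05% (decreased) of all protein-coding genes holding one, a list of this size may well hold none. A narrower decreased region was held by 10 of the 20 (50%) and an increased region by none. Of all protein-coding genes, 12.3% and 6.83% held a decreased and an increased region of any width.

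Of 94 listed homeobox and other developmental factors, Meis1, Mab21l1, Foxo3 (3636 bp) and Ebf3 (3069 bp) held increased regions, and Zfhx4 and Runx1 were among those with decreased regions. This list is not complete either. En1, with a broad increased region, and Zic1 and Zic4, with a broad decreased one, are not on it. Foxo3 is a forkhead factor that drives genes of muscle atrophy. Among 50 nuclear receptors and coregulators, the class of factors that RIP140 binds, Nr2f2 was among those with increased regions. Rxra, the shared partner of many nuclear receptors, held decreased regions of 4344 and 3083 bp. Within the TGF-beta, BMP and activin list of 49 genes, Rgma, a BMP co-receptor, had an increased region of 5265 bp over its start. Smad3, a transducer of TGF-beta (4015 and 3142 bp), and the repressor Ski (6279 bp) had decreased regions.

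Among 52 cytokine and stress feedback genes, Socs1 was decreased and Pla2g4a, which encodes cytosolic phospholipase A2, had an increased region of 4300 bp. Of 38 fibroblast and matrix genes, Mmp2 (3404 bp) held an increased region and the collagen genes Col5a1 (3841 bp) and Col8a1 (4914 bp, over its start) held decreased ones. Plin4, of the perilipins that coat lipid droplets, was the only gene with a broad region among 55 of fatty acid and lipid metabolism, with a decreased region of 5942 bp over its start. This was 1.82% of the list, beside 1.05% of all protein-coding genes. With 10 kb on either side of the gene body, 2 of the 55 (3.64%) had a broad decreased region. At the neuromuscular junction, Dok7, the activator of MuSK (4930 bp), and the laminin gene Lama5 (3377 bp) held broad decreased regions, and none of the 44 listed genes a broad increased one. Of all protein-coding genes, 1.05% held a broad decreased and 0.31% a broad increased region, so a list of this size may well hold no increased one. With 10 kb on either side of the gene body, 1 of the 44 (2.27%) had a broad increased and 2 (4.55%) a broad decreased region. With regions of any width, 11 of the 44 (25%) held an increased and 11 (25%) a decreased region. Of all protein-coding genes, 6.83% and 12.3% did.

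No gene of the Wnt list (60 genes) or of the angiogenesis and hypoxia list (41 genes) shared a base with a broad region. Of all protein-coding genes only 0.31% (increased) and 1.05% (decreased) did, so lists of this size may well hold none. With regions of any width, 10 Wnt genes (16.7%) held an increased and 5 (8.33%) a decreased region. In the angiogenesis and hypoxia list, 4 (9.76%) and 5 (12.2%) did, beside 6.83% and 12.3% of all protein-coding genes. The Wnt list is not complete: Dvl1, a transducer of Wnt signals (3285 bp), and Ndp, a ligand of Frizzled receptors (3722 bp), are not on it and had broad decreased regions over their starts. Both were picked after their values were seen. No broad region was held by any of 12 genes that the study had named from these regions together with muscle RNA, of which 8 (66.7%) held an increased region of smaller width and none a decreased one, beside 6.83% and 12.3% of all protein-coding genes. With 10 kb on either side of the gene body, 1 of the 12 (8.33%) had a broad increased region and none a broad decreased one. Those 12 were chosen by the study on these libraries, so their direction is not independent evidence. Nrip1 held no broad region, and the nearest lay 2362 kb away on chromosome 16, an increased region of 4263 bp near D16Ertd472e.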

How the data were processed

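Libraries were made by CUT&RUN with 2 per group, as described above. The authors aligned paired reads to mm10 with BWA-MEM2 2.2.1, called broad peaks with HOMER 4.11 and kept regions with a 2-fold or larger difference in peak intensity. How replicates and IgG libraries entered is not stated, and the supplier of the H3K27ac antibody differs between the labels and the published methods. The deposited lists hold positions and a score that is 1 in every region, so the score was not used. Depth is unknown, and intervals cover counting error over regions only.

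Width was end minus start, and positions are given from 1. Peaks joined were read from the last number of the region name. Genes, starts and exons came from GENCODE M21, and sequence, GC content and repeats from the RefSeq GRCm38.p6 genome, the build of the files. In the lists, 11179 regions lay on placed chromosomes and 1 did not. Python 3.11.15, pandas 2.3.3, scipy 1.17.1 and pysam 0.24.0 were used, and the counting scripts were tested on simulated regions. Wilson intervals were taken at 95%.

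The members and gene lists were chosen with earlier results of these data known. Named by rule were genes at the 10 widest regions per direction, genes with 2 or more broad regions, genes of the lists with a broad region, genes wholly inside 1, Nrip1, and genes at the 3 regions per direction on each side of the threshold. En1, Zic1, Zic4, Dynap, Gm14137, Carhsp1, Vasn, Mylk2, Gapdh, Cldn5, Eed, Dvl1, Ndp and the genes of regions with a neighbour of opposite direction were added after their values were seen. Some genes and a sequence that these rules select are not reported here. Alternatives were other widths, joining within 1 kb, leaving out joined regions or chromosomes 4, 7, 10 and 16, and other definitions of starts and genes.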

Additional observations from a re-analysis of the deposited data

How the results depend on the processing

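All values here are counts, shares or means without a test. The number of broad regions followed the width chosen, with 312 increased and 909 decreased regions at 2 kb and 47 and 171 at 4 kb. Leaving out regions joined from several peaks left 47 increased and 148 decreased regions, and leaving out chromosomes 4, 7, 10 and 16 left 46 increased regions. Without those chromosomes, increased regions made up 15.5% of broad regions, 41.3% of the increased ones were joined and 10.9% covered a protein-coding start. The share of joined decreased regions was 39.3% at 2 kb and 68.4% at 4 kb. The share of decreased regions that covered a start was 9.35% at 2 kb and 19.3% at 4 kb. Without joined regions, a start was covered by 8.51% of increased and 8.11% of decreased regions. With starts of all genes the shares were 26.9% and 21.7%, and with the centre within 1 kb of a start they were 8.33% and 5.49%. Chromosomes 4, 7, 10 and 16 held 46.8% of broad regions at 4 kb and 27.7% without joined regions. Regions of any width touched 185 of the 575 listed genes, compared with 25 for broad regions. Of all protein-coding genes, regions of any width touched 6.83% in the increased and 12.3% in the decreased direction. The cause of these shifts was not tested beyond what the settings themselves change. Under each alternative run, decreased regions outnumbered increased ones and GC content was lower in increased regions.

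No paired analysis was possible because the lists hold no value per library. Without depth, fold changes or replicate values, no region can be ranked by certainty, and how far the 2 libraries of a group differed at any region is unknown.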

Other observations

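Broad regions with a listed region of opposite direction within 50 kb were few. The 8 increased ones were at Pdlim1, Nt5e, Myh3, Arpp21, Ctnna1, Ebf3, Utrn and Rasa1 by nearest protein-coding start. Myh3 encodes embryonic myosin heavy chain and Utrn encodes utrophin, both known from developing or regenerating muscle. The broad region near Myh3 measured 3680 bp and had 2 decreased regions within 50 kb, and that near Utrn measured 3029 bp and had 1. The 16 decreased ones included those near Lmod3, a leiomodin of the thin filament (4075 bp), Lif, a cytokine gene (3381 bp), and Tbx1, a T-box gene (3141 bp), each with 1 increased region within 50 kb. These genes were listed after their values were seen.

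Broad regions also held short non-coding genes whole. Mir1961 lay inside an increased region of 5492 bp in Shroom3, and Mir7212 inside a decreased region of 4251 bp in Retreg1.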
